A study of Homo sapiens with 6 samples.

Results

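The vacuolar-type proton ATPase (V-ATPase), the pump that acidifies lysosomes, endosomes and the Golgi apparatus, was examined in large physaliferous and in small non-vacuolated MUG-Chor1 cells through 10 of its genes. MUG-Chor1 is a cell line derived from a chordoma of the sacrum, a tumor with notochordal features, and physaliferous cells are its heavily vacuolated form. The large group held 3 pools (pools 2, 3 and 4) of 20 large physaliferous cells each, and the small group held 3 pools (pools 5, 6 and 7) of 20 small non-vacuolated cells each. All pools came from the same untreated line, were picked by micromanipulation after trypsin treatment, and were amplified as cDNA and hybridized to 1 Affymetrix Human Gene ST array per pool. The phenotype was assigned by eye, the line represents 1 tumor, and nothing in the sources used here ties the pools of a group to different cultures. The p-values therefore reflect variation among these 3 and 3 pools, which may be technical. The methods describe pools in quadruplicate. The series holds 3 pools per phenotype, and all of them were analyzed here.

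The members were the probe sets whose platform gene symbol was exactly *ATP6V1A*, *ATP6V1B2*, *ATP6V1D*, *ATP6V1G1*, *ATP6V1H*, *ATP6V0A1*, *ATP6V0A2*, *ATP6V0D1*, *ATP6V0E1* or *ATP6AP2*. Each of these 10 genes had 1 probe set, so the rule of keeping the brightest one per gene never had to choose. They are 10 of 18404 genes with a probe set of a single symbol. All 10 also belonged to the 11694 genes above the expression floor, a log2 value over log2(100) that 2 or more arrays had to reach, and every member was above that floor in all 6 pools. By RefSeq the genes lie on chromosomes 3, 5, 8, 9, 12, 14, 16, 17 and X, with *ATP6V1B2* and *ATP6V1H* sharing chromosome 8.

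The pump works as a rotary motor. Its V1 sector in the cytosol hydrolyzes ATP and turns a central rotor, and its V0 sector in the membrane carries protons across as that rotor turns. Reversible attachment of V1 to V0 regulates the pump, and isoforms of the a subunit direct it to different membranes. In zebrafish, the large vacuoles of notochord cells are lysosome-related organelles whose formation needs the V-ATPase.

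The values are log2 expression after robust multi-array averaging, as deposited, and describe the makeup of amplified cDNA, not the amount of RNA per cell. Fewer expressing cells in a pool and less transcript per cell cannot be told apart. Array medians were 6.64 to 6.68 in large pools and 6.73 to 6.76 in small pools, and 53.1% to 56.4% of genes lay above the floor in large pools against 58.1% to 60.1% in small pools. All 7 chordoma markers examined, among them brachyury (*TBXT*), were above the floor, whereas 5 of 7 blood and endothelial markers were below it (*PTPRC*, *PECAM1*, *VWF*, *CDH5* and *HBB*). The other 2 were *CD14* and *CD68*. *CD14* was close to the floor (6.64), with 6.61, 6.41 and 6.88 in large pools 2, 3 and 4. It had 7.03, 6.74 and 6.71 in small pools 5, 6 and 7. *CD68*, which encodes a lysosomal membrane protein of macrophages, averaged 8.88 in large and 8.28 in small pools. Its log2 fold change was 0.60, with an unadjusted p of 0.034 and an adjusted p of 0.32 by limma. Over all genes tested, 38.1% had a higher mean in large pools. Of 8 fibroblast markers 6 were tested and all 6 had lower means in large pools, 0 of 6 with an unadjusted p under 0.05. The pool averages of the list were 7.28 to 7.49 in large and 7.60 to 7.997 in small pools. The highest average, in small pool 7, included 8.88 for *LUM*, which had 7.22 and 6.30 in small pools 5 and 6. *DCN* and *FAP* were below the floor. Of 8 mitosis genes 7 were tested, 1 with a higher and 6 with a lower mean in large pools (median -1.07 on the log2 scale), and large pool 4 stood apart. The pool averages were 6.88 in large pool 2 and 6.7 in large pool 3, below all small pools, and 8.78 in large pool 4, above all small pools, which had 7.70 to 8.67. The part of these lists in the results for the V-ATPase was not tested.

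No member met the criteria for differential expression between large physaliferous and small non-vacuolated cells. The mean of 9 of the 10 members was higher in large pools, against 38.1% of all genes tested, and *ATP6V1A*, the catalytic subunit, was the exception. The median log2 fold change (large minus small) of the members was 0.13, against -0.098 over all 11694 genes. The largest mean differences belonged to *ATP6V1H* (0.79), *ATP6V1G1* (0.59), *ATP6V0A2* (0.54) and *ATP6V0E1* (0.49), whereas the other 6 members lay between -0.067 and 0.17. The share over all genes depended on scaling and signal level. After quantile normalization 7 members had a higher mean in large pools, against 40.5% of all genes, and after centring of each array all 10 did, against 48% of all genes. It was 9 members against 49.1% of all genes without the trend with signal, and 9 members against 56.9% of genes above log2(200). The number of members was 6 without small pool 7, 7 without large pool 3, 8 without large pool 4, 10 without large pool 2 and 9 without small pool 5 or 6.

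A member was called at an adjusted p under 0.05 (limma, Benjamini-Hochberg over all 11694 genes) with an absolute log2 fold change above 1. Of the members 0 were called and of all genes 0 (0%), the adjusted p of the members running from 0.32 to 0.96 by limma. At an unadjusted p under 0.05, 1 member was higher (*ATP6V0A2*) against 5.65% of all genes, and 0 members were lower against 9.37% of all genes. Among all genes 661 were higher and 1096 lower at this threshold. The split depended on scaling and signal level. It was 660 higher and 653 lower under quantile normalization, and 971 higher and 412 lower once each array was centred on its median. It was 841 higher and 290 lower once the trend with signal was taken out. Among the 5298 genes above log2(200), which include all 10 members, 426 were higher and 125 lower. In 1 member (*ATP6V0A2*) all large pools lay above all small pools, against 7.22% of all genes, and in 0 members all large pools lay below, against 21.3% of all genes. A two-sided exact permutation test of 3 against 3 pools cannot give a p under 0.1. The 95% confidence interval of the difference held 0 for 9 of the 10 members. For 7 members its upper bound was below 1, which is a 2-fold change, while *ATP6V1H*, *ATP6V1G1* and *ATP6V0E1* had upper bounds above 1.

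**Figure D1:**
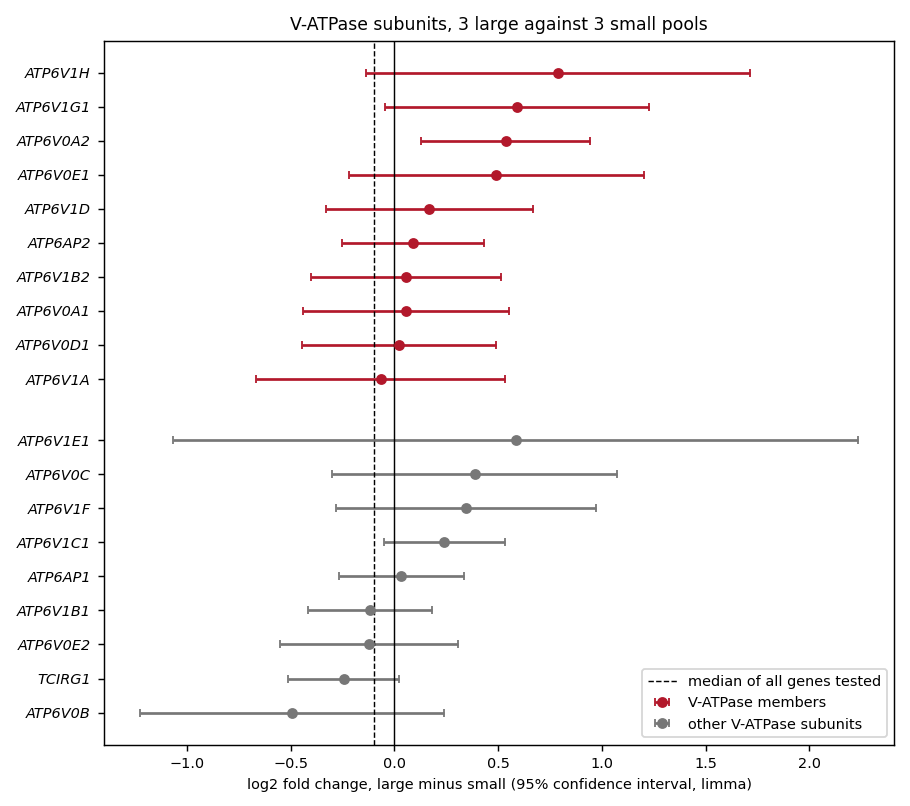
Log2 fold change of large against small pools (horizontal axis) with 95% confidence intervals from limma (3 pools against 3) for the 10 members (red) and for 9 further V-ATPase subunits (grey); the dashed line marks the median of all genes tested (-0.098). Among the members only the interval of *ATP6V0A2* (0.13 to 0.94) lies to the right of 0.

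The membrane sector V0 was represented by 4 members. *ATP6V0A2* encodes the a2 isoform of the subunit that holds the proton half-channels, an isoform found mainly in the Golgi apparatus and endosomes and mutated in an inherited form of cutis laxa. Its log2 expression was 8.27, 8.31 and 8.12 in large pools 2, 3 and 4, against 7.82, 7.90 and 7.37 in small pools 5, 6 and 7. The groups did not overlap, the lowest large pool lying 0.23 above the highest small pool. The means were 8.23 ± 0.10 in large and 7.70 ± 0.28 in small pools (SD, n = 3 each), a difference of 0.54 (standard error 0.17, 95% confidence interval 0.13 to 0.94) or 1.45-fold (1.09 to 1.92). The unadjusted p from limma was 0.018 and the adjusted p was 0.32. Leaving out 1 pool at a time gave differences of 0.37 to 0.63, and the unadjusted p was 0.052 without large pool 2 and 0.055 without large pool 3.

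*ATP6V0A1* encodes the a1 isoform of the same subunit, known from neurons and from lysosomes. It had 8.64, 8.93 and 8.39 in large pools 2, 3 and 4, against 8.33, 8.89 and 8.57 in small pools 5, 6 and 7. The ranges of the groups coincided almost fully. The log2 fold change was 0.055 (95% confidence interval -0.44 to 0.55, adjusted p = 0.90 by limma), and whether the 2 isoforms differed in their change was not tested.

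*ATP6V0E1*, a small hydrophobic subunit of V0, had 11.57, 11.42 and 11.36 in large pools 2, 3 and 4, against 10.31, 11.13 and 11.44 in small pools 5, 6 and 7. Small pool 5 was far below the other 5 pools, and small pool 7 lay within the range of the large pools. The log2 fold change was 0.49 (95% confidence interval -0.22 to 1.204, adjusted p = 0.40 by limma) and was 0.17 without small pool 5. *ATP6V0D1*, which joins the membrane rotor to the V1 stalk, showed the reverse arrangement of spread, with 7.95, 7.80 and 8.48 in large pools 2, 3 and 4, against 8.09, 8.08 and 8.004 in small pools 5, 6 and 7. Its log2 fold change was 0.022 (95% confidence interval -0.45 to 0.49, adjusted p = 0.96 by limma). This near-equality rested on large pool 4, without which the log2 fold change was -0.18 and both other large pools lay below all small pools.

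**Figure D2:**
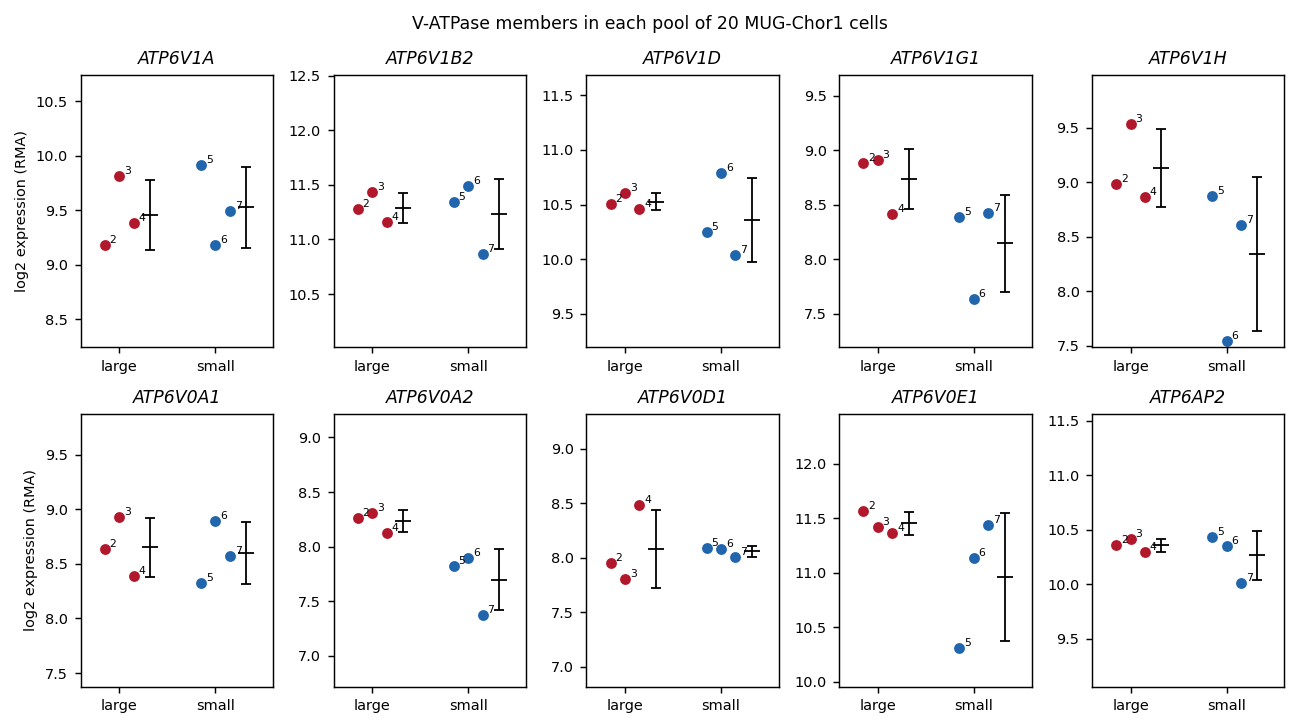
Deposited log2 expression (vertical axis, each panel spanning the same number of log2 units) of the 10 members in 3 large (red, left) and 3 small (blue, right) pools of 20 cells. Points are pools with their numbers, and black bars are means with SD (n = 3 pools); levels of different genes come from different probe sets and cannot be ranked. Large and small points are fully separated only for *ATP6V0A2*, and single low pools stand out for *ATP6V1H* (7.54 in small pool 6), *ATP6V1G1* (7.64 in small pool 6) and *ATP6V0E1* (10.31 in small pool 5).

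Of the 5 members of the catalytic sector V1, the 2 with the highest mean differences both had their lowest value in small pool 6. *ATP6V1H*, a regulatory subunit that couples V1 to V0 and keeps detached V1 from hydrolyzing ATP, had 8.99, 9.54 and 8.87 in large pools 2, 3 and 4, against 8.87, 7.54 and 8.61 in small pools 5, 6 and 7. Large pool 4 and small pool 5 met at 8.87, so the groups overlapped by a narrow margin. The means were 9.13 ± 0.36 in large and 8.34 ± 0.70 in small pools (SD, n = 3 each), and they differed by 0.79 (standard error 0.38, adjusted p = 0.35 by limma) with a 95% confidence interval of -0.14 to 1.72. The difference was 0.39 without small pool 6 and 1.05 without small pool 5.

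*ATP6V1G1* encodes a subunit of the peripheral stalk that holds the pump's stator in place. It had 8.88, 8.91 and 8.42 in large pools 2, 3 and 4, against 8.38, 7.64 and 8.42 in small pools 5, 6 and 7. Large pools 2 and 3 were above all small pools, whereas large pool 4 was level with small pools 5 and 7. The means were 8.74 ± 0.28 in large and 8.15 ± 0.44 in small pools (SD, n = 3 each), which differed by 0.59 (standard error 0.26, adjusted p = 0.34 by limma) with a 95% confidence interval of -0.046 to 1.23. Without small pool 6 the difference was 0.33.

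*ATP6V1D*, part of the central rotor, had 10.51, 10.61 and 10.46 in large pools 2, 3 and 4, against 10.25, 10.79 and 10.03 in small pools 5, 6 and 7. Small pool 6 was the highest of all pools and small pool 7 the lowest. The log2 fold change was 0.17 (95% confidence interval -0.33 to 0.67, adjusted p = 0.66 by limma), and it was 0.38 without small pool 6 (unadjusted p = 0.036) and 0.0063 without small pool 7. *ATP6V1B2*, the B subunit that forms the ATPase ring together with the A subunit, had 11.28, 11.43 and 11.16 in large pools 2, 3 and 4, against 11.34, 11.49 and 10.87 in small pools 5, 6 and 7. Its small pools spanned the large ones, and the log2 fold change was 0.055 (95% confidence interval -0.40 to 0.51, adjusted p = 0.89 by limma).

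*ATP6V1A*, the A subunit with the catalytic ATP-binding sites, had 9.18, 9.81 and 9.39 in large pools 2, 3 and 4, against 9.91, 9.18 and 9.49 in small pools 5, 6 and 7. Both groups were spread over the same range. Its log2 fold change was -0.067 (95% confidence interval -0.67 to 0.53, adjusted p = 0.89 by limma). The sign turned to 0.017 after centring of each array. It also turned without small pool 5 (0.13) and without large pool 2 (0.073).

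*ATP6AP2* encodes the accessory protein of the pump that is also known as the prorenin receptor. It varied least among the members in large pools, with 10.36, 10.41 and 10.30 in pools 2, 3 and 4, against 10.44, 10.35 and 10.01 in small pools 5, 6 and 7. The large pools lay inside the range of the small pools. The log2 fold change was 0.088 (95% confidence interval -0.25 to 0.43, adjusted p = 0.74 by limma), the narrowest interval of the 10 members, and without small pool 7 it was -0.039.

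Of the 10 members, 8 were above their own mean over the 6 pools in large pool 2, 9 in large pool 3 and 5 in large pool 4, against 5 in small pool 5, 5 in small pool 6 and 1 in small pool 7. In small pool 7 the member above its mean was *ATP6V0E1*. In 9 of 10 members the SD was larger among small than among large pools, *ATP6V0D1* being the exception. Over all genes tested 50.6% had a larger SD among small pools, and in the class of brightest genes, which holds 7 of the members, 65.6% had. The low small pool differed between members. Small pool 7 was the lowest pool for *ATP6V1B2*, *ATP6V1D*, *ATP6V0A2* and *ATP6AP2*, small pool 6 for *ATP6V1A*, *ATP6V1G1* and *ATP6V1H*, and small pool 5 for *ATP6V0A1* and *ATP6V0E1*. The peripheral stalk and regulatory members, *ATP6V1G1* and *ATP6V1H*, had in small pool 6 a deviation of -0.81 and -1.19 from their means over the 6 pools. In the same pool the catalytic member *ATP6V1A* had a deviation of -0.315, while *ATP6V1D* and *ATP6V1B2* were 0.34 and 0.23 above their means. Large pool 3 was the highest pool for 4 members. The median deviation of the members was 0.058, 0.26 and -0.00019 in large pools 2, 3 and 4, against -0.018, -0.031 and -0.096 in small pools 5, 6 and 7. Over all genes the same median was negative in large pools (-0.084 to -0.0072) and positive in small pools (0.027 to 0.083).

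**Figure D3:**
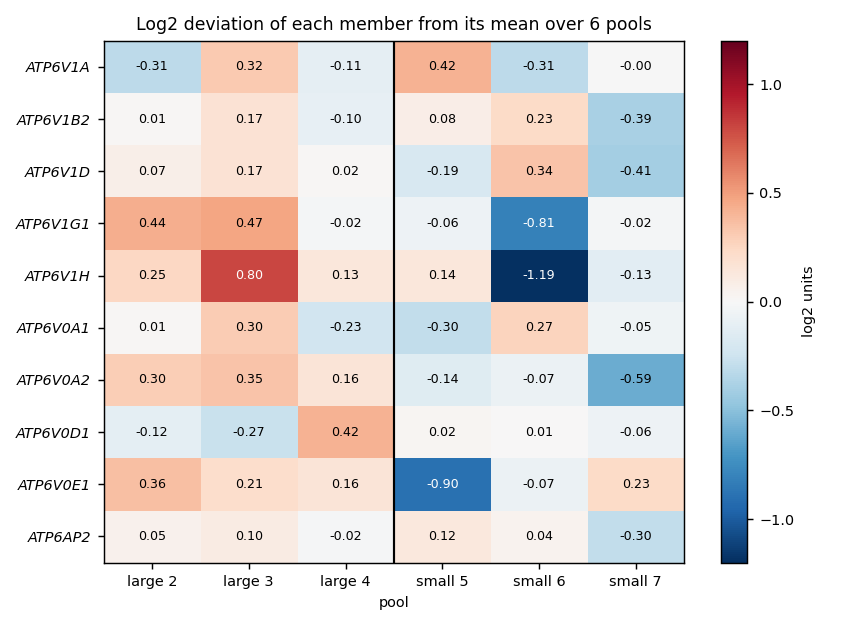
Deviation of each member (rows) from its own mean over 6 pools, in log2 units, in large pools 2 to 4 (left of the line) and small pools 5 to 7 (right of it); red is above and blue below the mean. The lowest cells sit in different small pools, at -1.19 for *ATP6V1H* and -0.81 for *ATP6V1G1* in small pool 6, -0.90 for *ATP6V0E1* in small pool 5 and -0.59 for *ATP6V0A2* in small pool 7.

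The log2 fold change of a gene moved with its signal level in these arrays, and the members are bright. When the genes tested were divided into 5 equal classes by mean level, the median log2 fold change was -0.17 in the lowest class, -0.013 in the fourth and 0.10 in the brightest. A higher mean in large pools was found for 24.5% of genes in the lowest class and 65.5% in the brightest class. The brightest class held 7 members and the fourth class 3, and the other classes held 0. Compared with the median of their own class, 6 members had a higher log2 fold change (*ATP6V1D*, *ATP6V1G1*, *ATP6V1H*, *ATP6V0A2*, *ATP6V0D1* and *ATP6V0E1*) and 4 a lower one. When the trend of log2 values with signal was subtracted array by array, the median of the members was 0.080 against -0.0046 over all genes, and *ATP6V0A2* had a difference of 0.57 with an unadjusted p of 0.011 and an adjusted p of 0.40 by limma. Among genes above log2(200), a set that still held all 10 members, the median over all genes was 0.057. The part of signal level in the members' differences was not tested further.

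**Figure D4:**
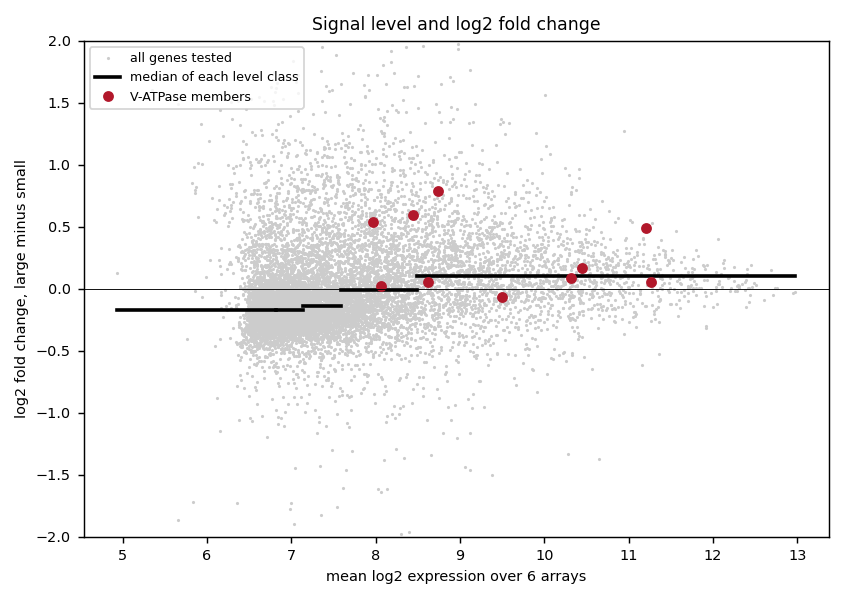
Log2 fold change of large against small pools (vertical axis) against mean log2 expression over 6 arrays (horizontal axis) for all 11694 genes tested (grey points, 30 of them outside the plotted range of -2 to 2) and the 10 members (red). Black lines are the medians of 5 classes of equal size by level, from -0.17 in the lowest to 0.10 in the brightest class, and the members all lie in the 2 brightest classes.

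Beyond the members, 16 further genes of the pump were listed, 13 had a single-symbol probe set and 9 were tested. Of these 9, 5 had a higher and 4 a lower mean in large pools, the median being 0.034 on the log2 scale, and 0 had an unadjusted p under 0.05. Their log2 fold changes ran from -0.49 (*ATP6V0B*) to 0.58 (*ATP6V1E1*), both named after their values were seen. Among subunits with restricted tissue use, *ATP6V0D2*, *ATP6V1C2*, *ATP6V1E2* and *ATP6V1G3* were below the floor, whereas *ATP6V1B1* and *TCIRG1* were above it in all 6 pools. *ATP6V1B1* was close to the floor (6.64), from 6.67 in large pool 2 to 6.99 in small pool 5. The groups did not overlap for 2 of the 9, 1 higher (against 7.22% of all genes) and 1 lower (against 21.3%), and both are named here after their values were seen. *ATP6V1C1*, a stalk subunit, had 11.14, 11.18 and 11.11 in large pools 2, 3 and 4, against 10.73, 10.91 and 11.07 in small pools 5, 6 and 7 (log2 fold change 0.24, adjusted p = 0.36 by limma). *TCIRG1*, the a3 isoform used by osteoclasts, had 7.20, 7.33 and 7.34 in large pools 2, 3 and 4, against 7.57, 7.62 and 7.41 in small pools 5, 6 and 7 (log2 fold change -0.24, adjusted p = 0.34 by limma).

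Factors of V-ATPase assembly and regulation were divided, with 4 higher and 4 lower of 8 tested, a median of -0.018 and 0 at an unadjusted p under 0.05. The groups did not overlap for 1 higher gene (against 7.22% of all genes) and 1 lower gene (against 21.3%), both named after their values were seen. *OXR1* was higher (log2 fold change 1.07, adjusted p = 0.335 by limma), above every member, and passed the floor in 2 small pools. *ROGDI* was lower (log2 fold change -0.23, adjusted p = 0.405 by limma). Transporters and channels that share endosomal and lysosomal membranes with the pump gave 3 higher and 5 lower of 8 tested, with a median of -0.069. At an unadjusted p under 0.05, 2 of them were higher, against 5.65% of all genes, and 0 lower, against 9.37%. *CLCN3*, a chloride-proton exchanger of endosomes, had 9.05, 8.75 and 8.35 in large pools 2, 3 and 4, against 6.99, 7.80 and 7.65 in small pools 5, 6 and 7. Its log2 fold change of 1.23 (95% confidence interval 0.57 to 1.90, unadjusted p = 0.0040, adjusted p = 0.32 by limma) was above that of every member. *OSTM1*, the partner protein of the lysosomal chloride-proton exchanger encoded by *CLCN7*, had 7.27, 7.22 and 7.55 in large pools 2, 3 and 4, against 7.08, 7.004 and 6.65 in small pools 5, 6 and 7 (log2 fold change 0.44, unadjusted p = 0.037, adjusted p = 0.32 by limma). In both genes, 2 of the 8 tested, all large pools were above all small pools, against 7.22% of all genes. In 1 of the 8, *MCOLN1*, all large pools were below all small pools, against 21.3% of all genes. *MCOLN1*, a lysosomal cation channel, is named here after its values were seen. It had 6.88, 6.66 and 6.86 in large pools 2, 3 and 4, against 7.33, 6.96 and 7.04 in small pools 5, 6 and 7 (log2 fold change -0.31, adjusted p = 0.34 by limma). *CLCN7* itself was below the floor in all 6 pools.

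The pump serves as a docking site for nutrient signaling to mTORC1 on the lysosome, and TFEB and its relatives regulate lysosomal genes. Of 16 tested genes of this signaling, 7 had a higher and 9 a lower mean in large pools (median -0.016), with 0 at an unadjusted p under 0.05. *TFEB* had a log2 fold change of -0.022, *TFE3* -0.044 and *MITF* -0.096. Of these, *TFE3* was above the floor (6.64) in only 1 large and 1 small pool. *TFEB* was near the floor, averaging 6.88 in large and 6.91 in small pools. Lysosomal membrane proteins gave 7 higher of 9 tested (median 0.053), with the sialic acid transporter *SLC17A5* higher (log2 fold change 0.47) and *TMEM192* lower (-0.77) at an unadjusted p under 0.05. *TMEM192* was near the floor, averaging 6.58 in large and 7.35 in small pools. Lysosomal hydrolases gave 7 higher of 11 tested (median 0.17), with the thioesterase *PPT1* higher (0.63) and *NAGLU*, an enzyme of heparan sulfate breakdown, lower (-0.30). The mitochondrial F-type ATP synthase, a related rotary enzyme, gave 7 higher and 7 lower of 14 tested (median -0.0063), with *ATP5F1D* lower (-0.39). *SLC17A5*, *TMEM192*, *PPT1*, *NAGLU* and *ATP5F1D* are the genes of these lists with an unadjusted p under 0.05, at most 1 higher and 1 lower per list. Over all genes 5.65% were higher and 9.37% lower at this threshold, and the adjusted p of the named genes was 0.32 to 0.33 by limma. No gene of these lists was called, and whether the members differed from them as a group was not tested.

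Promoters of 6 members were matched by symbol in the RefSeq table (GRCh38.p14), each running from 250 bases before to 50 after the start of the gene. They were searched on both strands, which read alike for these palindromes, for the E-box CACGTG and for TCACGTGA, the inner 8 letters of the consensus that TFEB binds in lysosomal genes. Both motifs occurred in 2 of the 6, *ATP6V1G1* and *ATP6V0D1*, the E-box being contained in the longer motif. Among all 35116 tabulated promoters, CACGTG was in 7.26% and TCACGTGA in 0.98%. Of the further pump genes listed above, no tabulated promoter held TCACGTGA. Only *ATP6V0B* and some promoters of *ATP6V0E2* held CACGTG. The 150 bases before the start are shown for *ATP6V1G1* and *ATP6V0D1* and for *ATP6V0A2*, the member with separated groups, with TCACGTGA in capitals.
ATP6V1G1 (GRCh38.p14, chr9:114587619-114587768, plus strand): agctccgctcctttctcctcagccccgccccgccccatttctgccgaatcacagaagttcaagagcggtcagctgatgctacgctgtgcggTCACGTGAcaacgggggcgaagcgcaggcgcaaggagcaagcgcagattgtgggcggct
ATP6V0D1 (GRCh38.p14, chr16:67481158-67481307, minus strand): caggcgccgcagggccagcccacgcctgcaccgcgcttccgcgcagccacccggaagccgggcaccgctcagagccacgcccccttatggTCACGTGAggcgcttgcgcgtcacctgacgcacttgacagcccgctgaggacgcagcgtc
ATP6V0A2 (GRCh38.p14, chr12:123712203-123712352, plus strand): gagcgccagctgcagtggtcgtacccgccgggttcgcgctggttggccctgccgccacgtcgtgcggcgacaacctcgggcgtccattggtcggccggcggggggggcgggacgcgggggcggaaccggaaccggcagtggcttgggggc
In *ATP6V1G1* the motif begins 59 bases and in *ATP6V0D1* 60 bases before the start, and these letters are not in the window of *ATP6V0A2*. The log2 fold changes of *ATP6V1G1*, *ATP6V0D1* and *ATP6V0A2* were 0.59, 0.022 and 0.54. Those of *ATP6V1D*, *ATP6V0A1* and *ATP6AP2* were 0.17, 0.055 and 0.088. Whether matches go with the differences was not tested. A match describes letters and is no evidence of binding, and the promoters of *ATP6V1D*, *ATP6V0A1* and *ATP6AP2* held neither motif in this window.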

How the data were processed

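The deposited values are log2 expression of probe sets, 1 column for each array, which the authors obtained by robust multi-array averaging. This step corrects background, quantile-normalizes and summarizes probes, so each array's values are relative to the others. Software is given as the affy package in the methods and as Affymetrix Expression Console in the submitters' processing notes. The chip definition file was not given in the sources used here. For arrays, their number limits the precision.

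One probe set with a single symbol was kept per gene, the brightest over 6 arrays, and genes above log2(100) in at least 25% of arrays were fitted in R 4.3.3 with limma 3.58.1 (large minus small, no covariate, Benjamini-Hochberg adjustment). The methods give no limits for their filters on expression and variation, so the limits are those set here; a filter on variation (interquartile range above 0.5) was an alternative, since it keeps 0 of the 10 members. The test was checked on simulated data with changes larger than that of any member. The check does not cover changes of the members' size. Members and gene lists were chosen with earlier results of these data known. Named are all members and, of each other list, at most 2 genes with the smallest unadjusted p under 0.05. Named beside this rule were *ATP6V1C1*, *TCIRG1*, *ATP6V0B*, *ATP6V1E1*, *ATP6V0E2*, *OXR1*, *ROGDI*, *MCOLN1*, *ATP6V1B1*, *TFEB*, *TFE3*, *MITF*, the marker genes and genes below the floor. Alternatives covered filters, scaling, variance model, array weights, probe set choice and each pool left out.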

Additional observations from a re-analysis of the deposited data

How the results depend on the processing

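The call of 0 members did not change under any of the 16 alternatives in which members could be tested, the lowest adjusted p of a member by limma being 0.28 (*ATP6V0A2*, variance trend). With the filter on variation no member was tested, and 2 of all genes were called; with every probe set tested 1 was called. Members at an unadjusted p under 0.05 by limma and higher numbered 2 of 10 after centring of each array, against 971 of 11694 genes. Members with all large pools above all small pools numbered 3 after centring and 2 with the trend with signal level removed. The share of all genes with separated groups was not counted under the alternatives. Leaving out 1 pool gave 0 to 2 members higher at an unadjusted p under 0.05 by limma (0 without large pool 2 or 3). Over all 11694 genes it gave 508 (without large pool 2) to 742 (without small pool 7). Members with separated higher groups then numbered 1 to 3, and with separated lower groups 0 to 1. Groups with a pool left out separate more easily than 3 against 3 pools, so these counts cannot be set beside the main ones. The members' median ran from 0.024 (without small pool 7) to 0.27 (without small pool 6). For single members 12 values changed sign and 148 did not. After quantile normalization *ATP6V0A1* had -0.0016 and *ATP6V0D1* -0.021, and after centring *ATP6V1A* had 0.017. Over the left-out pools *ATP6V1A* ran from -0.24 to 0.13, *ATP6V1B2* from -0.13 to 0.18, *ATP6V0A1* from -0.083 to 0.20, *ATP6V0D1* from -0.18 to 0.16 and *ATP6AP2* from -0.039 to 0.17. *ATP6V1D*, *ATP6V1G1*, *ATP6V1H*, *ATP6V0A2* and *ATP6V0E1* were positive throughout. The causes were not tested. No paired analysis was made. The pool numbers of the groups do not repeat, and the sources used here do not say whether pools were paired.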
